A study of Mus musculus with 20 samples.

Results

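The presynaptic vesicle release machinery was followed through 46 genes for the proteins that dock, prime, fuse and retrieve synaptic vesicles. Its members were chosen by symbol from a list of such genes. Each has a row of its own in the deposited table of 12988 genes, and all 46 passed the filter on low counts. The choice was made with earlier results of these data known, and 87 other genes of the release pathway in the table form a wider list. The 46 members fall into 7 roles: 4 SNARE proteins, 6 SNARE regulators and recycling factors, 11 calcium sensors and their relatives, 10 active zone proteins, 6 vesicle membrane proteins and synapsins, 5 Rab proteins and effectors, and 4 endocytosis proteins.

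Neurotransmitter is released when a synaptic vesicle fuses with the presynaptic membrane. SNARE proteins on the vesicle and on the membrane zip together to drive fusion, active zone proteins hold and prime vesicles beside calcium channels, synaptotagmins and related proteins sense the incoming calcium, and endocytosis proteins take the membrane back. In a tissue sample such as this one, the transcripts come mainly from cell bodies in the dissected region and not from the axon terminals that reach it from elsewhere.

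RNA was sequenced from the bed nucleus of the stria terminalis in its anterodorsal part (adBNST), a forebrain region tied to anxiety and stress responses, microdissected from mice whose strain is not given in the sources used here. The 4 groups were unstressed control females, females under chronic variable mild stress, unstressed control males and males under the same stress, which lasted 6 weeks, began at 7 to 9 weeks of age and gave minor stressors in changing order. Stressed mice were sampled 1 hour after a final wet-bedding stressor, and all mice were under ketamine. Each group had 15 mice and gave 5 libraries, each from the pooled tissue of 3 mice, so the p-values measure the spread between pools and not between single mice.

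Library totals ran from 2.71 M (mega) to 33.6 M counts, median 15.6 M, and the 46 members took 1.53% to 1.69% of them. The lowest count of a member in a library was 53, for Syt12. All 18 marker genes listed for the region were detected in every library, among them the GABA synthesis genes Gad1 and Gad2 (means of 706 and 1125 CPM, counts scaled to the library total) and the enkephalin gene Penk (752 CPM). Members varied within groups by an SD of 0.062 to 0.251 on the log2 CPM scale, with a median of 0.108, where the median over all genes was 0.132.

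In the fit of all 20 libraries with no covariate or trend correction, 1 of the 46 genes passed the test in any comparison. This was Unc13c, the gene for the vesicle priming factor Munc13-3. It was lower in control males than in control females, where 0.747% of all genes were called. Calls were made at a Benjamini-Hochberg adjusted p under 0.05 from edgeR's quasi-likelihood test on all genes. With stress, 0 members passed in either sex, against 0.0% of all genes in females and 0.0077% in males. In stressed males 6 members lay wholly above or below their control range, as did 4.3% of all genes, led by Unc13c, the complexin gene Cplx2 and the vesicle SNARE gene Vamp1. The tissue is bulk, so fewer cells of a type and less RNA per cell cannot be told apart in any of these values. Markers of striatal neurons, described further down, were lowest in the male controls (score -0.453 ± 0.154, against group means from 0.125 to 0.189). Values with that score as a covariate are given for some of the members, in part further down. Others, such as Syt13, have no such value here.

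Promoter windows, 250 bases before to 50 after a gene's start, were looked up for Unc13c and for Cplx1, Cplx2 and Vamp1, the members that came nearest to the threshold in the comparisons below. They are RefSeq sequences of build GRCm38.p6, printed 5′ to 3′ on the gene's strand, with matches of the motifs TGACG (a cyclic AMP response element core) and GGGCGG (a GC box) in capitals on either strand. No base of a TGACG match overlaps a GGGCGG match in them.
Unc13c lies at chr9:73968988-73969287 on the minus strand, Cplx1 at chr5:108549978-108550277 on the minus strand, Cplx2 at chr13:54302306-54302605 on the plus strand and Vamp1 at chr6:125215331-125215630 on the plus strand.
Unc13c promoter: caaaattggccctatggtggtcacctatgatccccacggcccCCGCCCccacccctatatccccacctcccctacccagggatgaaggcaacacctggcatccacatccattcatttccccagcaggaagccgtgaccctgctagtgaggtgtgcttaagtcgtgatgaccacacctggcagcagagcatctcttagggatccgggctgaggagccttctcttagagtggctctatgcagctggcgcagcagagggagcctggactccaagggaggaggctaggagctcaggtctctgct
Cplx1 promoter: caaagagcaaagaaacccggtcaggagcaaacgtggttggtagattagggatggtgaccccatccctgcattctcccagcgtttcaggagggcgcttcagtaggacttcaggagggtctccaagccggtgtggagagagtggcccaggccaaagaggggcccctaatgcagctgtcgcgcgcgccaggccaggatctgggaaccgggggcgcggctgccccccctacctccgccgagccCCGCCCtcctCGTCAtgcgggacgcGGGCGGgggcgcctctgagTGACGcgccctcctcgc
Cplx2 promoter: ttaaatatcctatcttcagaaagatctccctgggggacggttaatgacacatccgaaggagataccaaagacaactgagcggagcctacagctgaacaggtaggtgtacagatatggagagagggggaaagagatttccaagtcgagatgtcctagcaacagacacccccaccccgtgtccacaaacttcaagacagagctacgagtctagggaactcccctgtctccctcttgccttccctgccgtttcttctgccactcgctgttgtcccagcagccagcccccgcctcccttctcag
Vamp1 promoter: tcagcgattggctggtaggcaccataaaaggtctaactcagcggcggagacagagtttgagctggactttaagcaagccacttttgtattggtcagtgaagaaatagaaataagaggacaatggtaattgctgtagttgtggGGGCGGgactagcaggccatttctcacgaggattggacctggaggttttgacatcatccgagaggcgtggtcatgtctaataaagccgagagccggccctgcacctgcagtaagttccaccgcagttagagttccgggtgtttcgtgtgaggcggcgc

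The windows differ in what they hold. Unc13c and Vamp1 each have 1 GC box, Cplx1 has 2 GC boxes and 2 TGACG cores close to its start, and Cplx2 has none of either. The motifs TGTTCT, a glucocorticoid receptor half-site, and TATAAA, the TATA box, were also searched on both strands and were absent from these 4 windows. The RefSeq start used for Cplx2 lies 68793 bp from the gene start in the GENCODE M21 annotation, so its window belongs to an upstream start. Windows were found for 35 of the 46 members, 44 windows in all. Of these 44 windows, 61.4% held GGGCGG and 22.7% held TGACG, against 35.7% and 20.8% of the 32851 windows of all genes. TGTTCT was found in 5 member windows and 18.97% of all windows, and TATAAA in 3 and 13.6%. A match describes the letters in a window and is no evidence that a factor binds there.

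Levels were compared between genes as CPM per kb of exon. By this measure the abundance of the machinery spanned from 3.33 for Syt12 to 249.9 for Cplx2. Cplx2, whose protein binds assembled SNARE complexes and holds fusion ready for calcium, was followed by the vesicle SNARE Vamp2 (226), its membrane partner Snap25 (207), the vesicle GTPase Rab3a (183) and Syt11 (169.9), a synaptotagmin that does not bind calcium. Next came Dnm1 (155), the dynamin that cuts vesicles from the membrane, Syt1 (144), the fast calcium sensor, and Syp (139.6), synaptophysin, an abundant vesicle membrane protein.

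**Figure D1:**
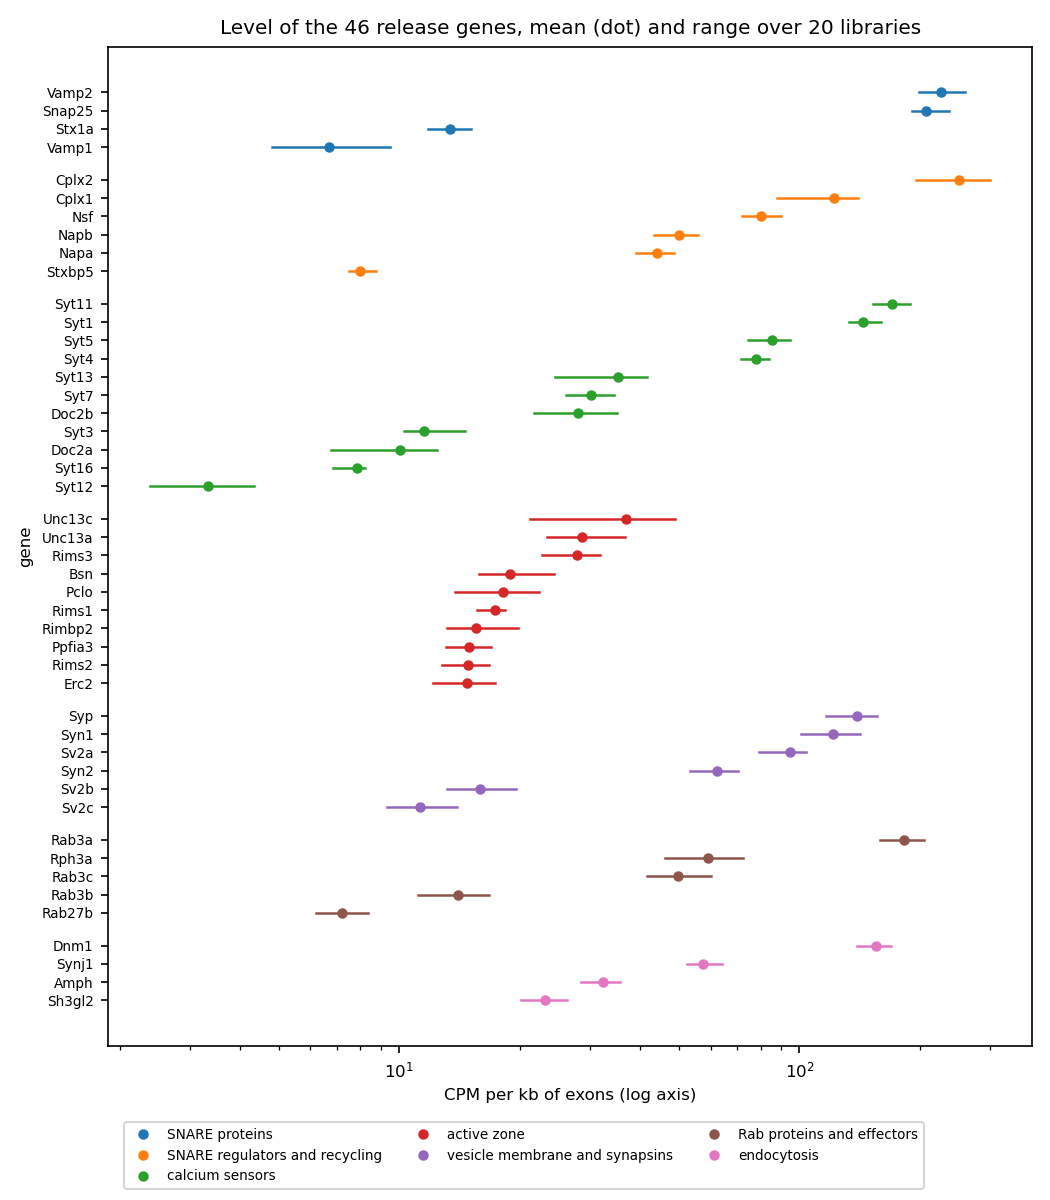
Mean level of each of the 46 members over the 20 libraries in CPM per kb of exon, on a log axis, with its range (line) and with members ordered within their role and coloured by it. Cplx2 is the highest at 249.9 and Syt12 the lowest at 3.33, and the 10 active zone genes sit in a narrow band between 14.8 and 36.8.

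The lowest member of a role was far below its highest among the SNAREs, where Vamp1 stood at 6.69 CPM per kb, and among the regulators, where Stxbp5, the gene for the SNARE inhibitor tomosyn, stood at 7.98. Active zone genes were closer together, from Erc2 (14.8), a scaffold also called CAST, to Unc13c (36.8). Sv2c (11.2), a vesicle glycoprotein, was the lowest of the vesicle group. Rab27b (7.21), a GTPase of vesicle trafficking, was the lowest of the Rab group, and Sh3gl2 (23.1), the gene for endophilin A1, was the lowest of the endocytosis group.

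The SNARE genes come first. Snap25 had 1417, 1315, 1534, 1504 and 1610.3 CPM in the female controls. The stressed females had 1370.3, 1296, 1449, 1382 and 1437 CPM, the male controls 1299, 1340.4, 1438, 1397 and 1376 and the stressed males 1414, 1499, 1365, 1346 and 1381. Its 4 ranges overlapped, and its log2 fold changes were -0.09 (SE 0.05) with stress in females and 0.03 (SE 0.05) in males. Vamp2 differed by -0.03 and 0.03 (SE 0.06 for each), and Stx1a, which pairs with Snap25 on the membrane, by 0.01 and 0.01.

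Vamp1, the less abundant vesicle SNARE, was the 1 SNARE gene whose male groups did not overlap. It had 73.1, 69.3, 96.6, 75.2 and 83.6 CPM in the male controls against 66.9, 60.0, 49.0, 59.2 and 61.9 in the stressed ones, and every stressed male library was below every male control. The log2 fold change was -0.43 (SE 0.10, adjusted p 0.0871), short of the threshold. The female controls had 61.0, 65.4, 83.6, 75.7 and 65.3 CPM and the stressed females 67.7, 74.7, 55.3, 60.6 and 55.9, with overlapping ranges and a fold change of -0.15 (SE 0.10, adjusted p 0.758). The difference between the stress effects in the 2 sexes was -0.28 (SE 0.15, adjusted p 0.515). Per kb, Vamp1 stood at 0.0356 ± 0.00321 (SD, n = 5) of Vamp2 in male controls and at 0.0262 ± 0.00244 in stressed males.

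Among the SNARE regulators, both complexins had their lowest group mean in male controls. Cplx2 had 1447, 1228, 1055, 1389.9 and 1409 CPM in the female controls. The stressed females had 1185, 977, 1329, 1416 and 1412 CPM, the male controls 979, 1063, 966, 1039 and 1073 and the stressed males 1319, 1472, 1476, 1219 and 1180.1. Male controls lay within a narrow band, all below the stressed males and 3 of 5 below every female control. The log2 fold change of Cplx2 was -0.35 (SE 0.10, adjusted p 0.0853) for control males against control females and 0.38 (SE 0.10, adjusted p 0.0871) with stress in males. With the striatal score as a covariate these were -0.05 and 0.06.

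Cplx1, the second complexin gene, had 290.3, 262, 278, 307 and 299 CPM in the female controls. The stressed females had 261, 250.7, 286, 292 and 273 CPM, the male controls 192, 227, 253, 234 and 273 and the stressed males 289.7, 305, 264, 262 and 239. It differed by -0.28 (SE 0.08, adjusted p 0.0916) between control males and control females, with 4 of 5 male controls below every female control. With stress in males it differed by 0.20 (SE 0.08, adjusted p 0.21). With the striatal score as a covariate these were -0.19 and 0.11. The per-kb ratio of Cplx1 to Cplx2 averaged 0.5003 ± 0.0545 in control and 0.492 ± 0.0531 in stressed females, against 0.519 ± 0.0624 in control and 0.461 ± 0.0357 in stressed males, and the 4 ranges of this ratio overlapped. Neither complexin passed with edgeR in the fit of all 20 libraries with no covariate or trend correction. For sex in controls, Cplx2 passed in such fits with the oligodendrocyte marker score as a covariate (adjusted p 0.0423) and with the GC content and length trend removed (0.0498). In fits of fewer libraries, Cplx2 passed for sex in controls with only the control groups (adjusted p 0.0230), without female control 3 (0.0297) and without female stressed 2 (0.0328). Cplx1 passed without male control 5 (0.0379).

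Nsf, the ATPase that takes spent SNARE complexes apart, differed by -0.03 with stress in females and 0.01 in males. Napa, the gene for its adaptor alpha-SNAP, differed by 0.11 (SE 0.05, adjusted p 0.292) with stress in males and by -0.12 (SE 0.05, adjusted p 0.284) between control males and females. Its relative Napb differed by -0.01 with stress in males. Stxbp5 differed by 0.0061 with stress in females and 0.02 in males.

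Of the 11 calcium sensors, 0 passed. Doc2a and Doc2b, high-affinity calcium sensors of spontaneous and asynchronous release, lay in opposite directions with stress in males. Doc2b had 102, 114, 94.6, 108 and 106 CPM in the male controls against 127, 147, 139, 122 and 113 in the stressed ones (a difference of 0.30 in log2, SE 0.11, adjusted p 0.17), while Doc2a had 34.9, 32.7, 28.6, 30.1 and 32.0 in the male controls against 28.7, 24.7, 18.96, 28.7 and 24.1 in the stressed ones (-0.35, SE 0.11, adjusted p 0.135). Both pairs of ranges overlapped: 4 of 5 stressed males were above all controls for Doc2b, and 3 of 5 were below all controls for Doc2a. With the striatal score as a covariate, the edgeR difference of Doc2a with stress in males was -0.09 (SE 0.11, adjusted p 0.928). The value of Doc2b in that fit is not given here. Per kb, the ratio of Doc2a to Doc2b was 0.47 ± 0.0383 in control and 0.305 ± 0.0658 in stressed males, and 0.364 ± 0.0862 in control and 0.343 ± 0.107 in stressed females. Exons of Doc2a share 1103 bp, 39.4% of their length, with Ino80e on the opposite strand, which is also in the table, and the strand setting of the counting is not given in the sources used here, so the Doc2a values are uncertain.

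Syt13, a synaptotagmin relative without calcium binding, had 143, 142, 141, 143 and 157 CPM in the male controls against 132, 129.7, 92.1, 137 and 119 in the stressed ones, which did not overlap (-0.26, SE 0.10, adjusted p 0.199). Syt12, another such relative, had 22.9, 18.0, 16.6, 19.95 and 23.1 CPM in female controls and 13.2, 17.6, 14.3, 15.9 and 17.8 in male controls (-0.34, SE 0.14, adjusted p 0.263). Syt12 was the least abundant member, and 17.2% of its exon length is shared with an antisense transcript that is not in the table. The established release sensors varied little: Syt1 differed by -0.01 with stress in females and 0.07 in males, and Syt7, the slow sensor, by 0.09 and -0.0047. Syt3, a synaptotagmin with high calcium affinity, ranged over 32.1 to 45.6 CPM in the 20 libraries and differed by 0.0010 with stress in males. In stressed mice Syt5, Syt16 and Syt4 had the next smallest p-values after Rimbp2 for the sex difference, at -0.11, 0.08 and 0.07 (adjusted p 0.719, 0.755 and 0.79).

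The active zone group held the 1 called gene. Unc13c had 378, 303, 361, 421 and 429 CPM in the female controls. The stressed females had 242, 255, 332, 419 and 422 CPM, the male controls 186, 257, 223, 254 and 249 and the stressed males 348, 414, 355, 307 and 326. Every male control library was below every female control and below every stressed male. Control males fell below control females by a log2 fold change of -0.69 (SE 0.14, adjusted p 0.0194), with means of 234 ± 29.8 and 378 ± 50.8 CPM (SD, n = 5). The stress difference was 0.58 (SE 0.14, adjusted p 0.0871) in males, at 349.9 ± 40.6 CPM in stressed males, and -0.17 (SE 0.14, adjusted p 0.795) in females, at 334 ± 86.4 CPM. The 2 stress effects differed by 0.75 (SE 0.19, adjusted p 0.261), and stressed males and females by 0.06 (SE 0.14), and none of these 4 differences passed. The sex difference of Unc13c was thus called in control mice, while the test of whether it differed between control and stressed mice did not pass.

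That call depended on single libraries and on 1 covariate. Its adjusted p was 0.0524 without female control 4, 0.0762 without female control 5, 0.0629 without male control 1 and 0.0608 without male control 3, with fold changes from -0.67 to -0.62. With the striatal marker score described below as a covariate it was 0.179, at -0.37. Endothelial and microglial markers lay the same way between the control groups. The endothelial score was -0.0781 ± 0.101 in control males and 0.101 ± 0.0576 in control females, with 5 of 5 males below every female, and the microglial score -0.0887 ± 0.137 and 0.0915 ± 0.0609, with 4 of 5 below. Over the 20 libraries Unc13c had an r of 0.59 with the endothelial and 0.70 with the microglial score (0.49 without male controls 1 and 3, the libraries farthest from its median). The part of these markers in the call was not tested.

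**Figure D2:**
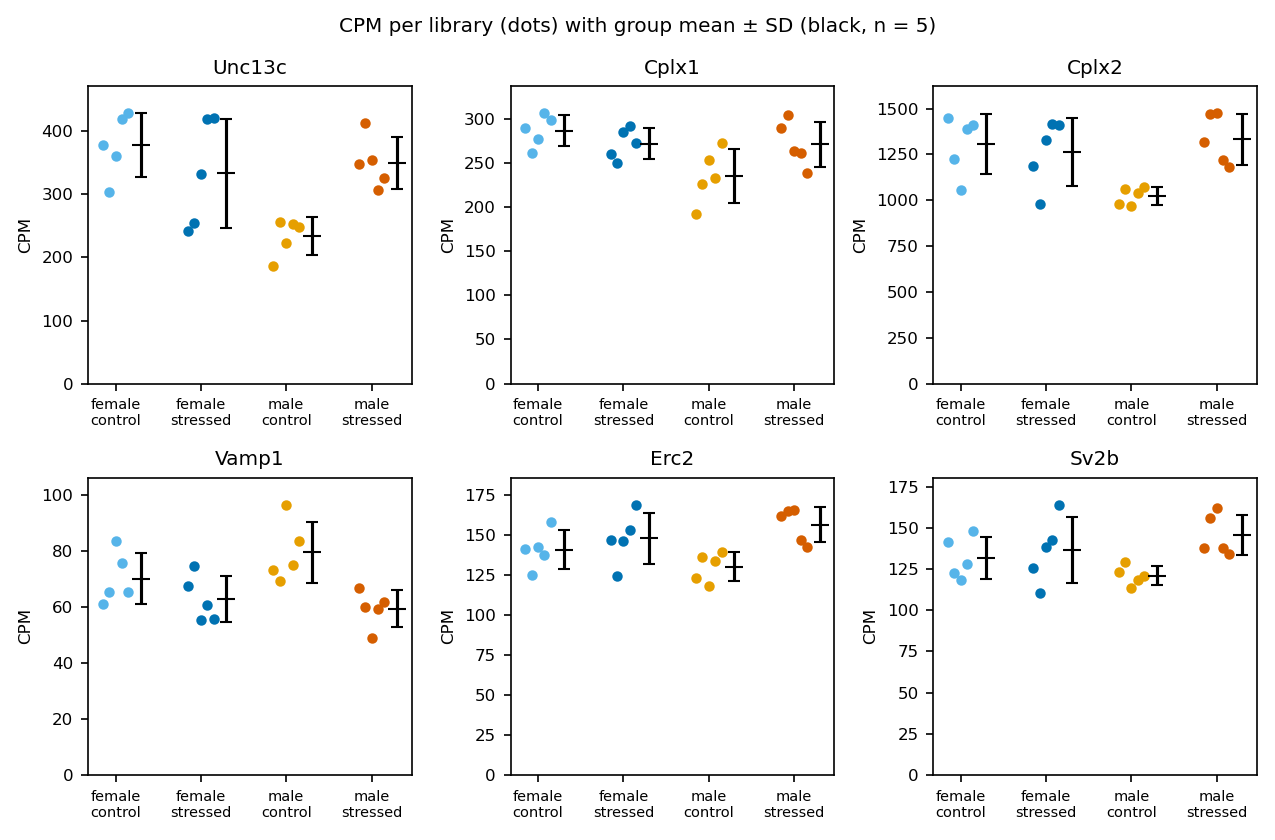
CPM (vertical axes, from 0) of Unc13c, Cplx1, Cplx2, Vamp1, Erc2 and Sv2b in each library (points), by group, with the group mean and SD in black, n = 5 libraries a group. For Unc13c the 5 male controls (186 to 257 CPM) lie under the 5 female controls (303 to 429 CPM) and the 5 stressed males (307 to 414 CPM).

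Unc13a, the gene for Munc13-1, the main priming factor of forebrain synapses, had overlapping groups and differed by -0.15 (SE 0.10, adjusted p 0.512) between control males and females and by -0.05 (SE 0.10) with stress in males. Per kb, Unc13c stood at 0.965 ± 0.186 of Unc13a in control and 1.503 ± 0.28 in stressed males, and at 1.41 ± 0.277 in control and 1.30 ± 0.171 in stressed females. The ratio ranges of male controls (0.71 to 1.21) and stressed males (1.27 to 1.97) did not overlap, and those of male and female controls (1.05 to 1.64) did. Exons of Unc13a share 3.92% of their length with Colgalt1 on the opposite strand.

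Erc2 had 123, 136, 118, 134 and 139 CPM in the male controls against 162, 165, 166, 147 and 142 in the stressed ones, which did not overlap (0.26, SE 0.07, adjusted p 0.105). Rimbp2, which ties RIM proteins to calcium channels, led the stress comparison in females without passing: female controls had 129, 133, 113, 104 and 108 CPM and stressed females 123, 130.2, 123, 138 and 157 (0.18, SE 0.07, adjusted p 0.609). Rims3, the gene for a short RIM protein, differed by -0.16 (SE 0.08, adjusted p 0.319) with stress in males. Rims1, the long RIM that organizes the active zone, had the lowest within-group SD of all members, 0.062 in log2 CPM, and differed by -0.01 with stress in males and -0.04 between control males and females. Ppfia3, the gene for the scaffold protein liprin-alpha-3, differed by 0.07 with stress in both sexes. The large scaffold genes Bsn and Pclo differed by 0.17 and -0.08 with stress in males.

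Among vesicle membrane genes, the SV2 family of glycoproteins had differences of both signs with stress in males. Sv2b had 123, 129, 114, 118 and 121 CPM in the male controls against 138, 156, 162, 138 and 134 in the stressed ones, with no overlap (0.27, SE 0.08, adjusted p 0.127). Sv2c averaged 99.6 ± 5.41 and 117 ± 16.3 CPM (0.23, SE 0.08, adjusted p 0.183), whereas Sv2a, the most abundant of the family, differed by -0.11. None of the 3 passed. Synaptophysin and the synapsins Syn1 and Syn2, which tether vesicles, differed by -0.08 to -0.0084 with stress in males and by -0.02 to 0.01 in females.

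The Rab group and the endocytosis group had no call. Rab3c, a vesicle GTPase, had 584, 581, 725, 606 and 651 CPM in female controls and 552, 610.2, 501, 585 and 587 in stressed females (-0.15, SE 0.06, adjusted p 0.617), and Rph3a, the gene for the Rab3 effector rabphilin, differed by -0.19 (SE 0.10, adjusted p 0.678) in the same comparison. The other Rab3 genes differed little in females, Rab3a by 0.03 and Rab3b by -0.03, and in males Rab3a differed by 0.05, Rab3b by -0.16 and Rab27b by -0.13. Sh3gl2 differed by -0.12 (SE 0.06, adjusted p 0.675) with stress in females. Oligodendrocyte markers scored 0.14 ± 0.228 in control and -0.0797 ± 0.1 in stressed females. With that score as a covariate the stress difference in females was -0.09 for Rab3c, -0.05 for Rph3a, -0.05 for Sh3gl2 and 0.12 for Rimbp2. The 4 endocytosis genes (Dnm1, Amph, whose protein recruits dynamin, Synj1, whose phosphatase helps uncoat vesicles, and Sh3gl2) ranged from -0.06 to -0.01 with stress in males. Dnm1 averaged 814 ± 30.4 CPM in control and 839 ± 26.1 in stressed females, and 808 ± 27.4 in control and 803 ± 77.3 in stressed males, and its ranges overlapped.

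Counted over the whole machinery, stress in females gave 0 calls of 46, where 0.0% of all genes were called, and 2 members had an unadjusted p under 0.05 (Rimbp2 higher, Rab3c lower), 4.35% against 7.51% of all genes. No member had groups that did not overlap, against 1.22% of all genes. The median log2 fold change of the members was -0.0098 and that of all genes -0.0011. With single libraries left out, the members' median was lowest without female control 1 (-0.0223) and highest without female control 5 (0.0026). With the oligodendrocyte score as a covariate it was 0.0209, against -0.0014 over all genes. DESeq2 and limma-voom also called 0 members, where they called 0.0077% and 0% of all genes.

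Stress in males gave 0 calls with edgeR, where 0.0077% of all genes were called. An unadjusted p under 0.05 was found for 12 members, 26.1% against 15.5% of all genes: 8 higher (17.4%, against 8.71% of all genes higher) and 4 lower (8.7%, against 6.76% lower). The higher were Unc13c, Cplx2, Erc2, Sv2b, Doc2b, Sv2c, Cplx1 and Napa, and the lower Vamp1, Doc2a, Syt13 and Rims3. Groups did not overlap for 6 members, 13.04%, against 4.3% of all genes. The members were chosen with earlier results of these data known, so these shares are no test of the set. In the wider list of 87 other pathway genes, 13.8% had an unadjusted p under 0.05. The median over the members was 0.0018, with 25 above and 21 below 0, against -0.0067 over all genes. DESeq2 called 3 members (Unc13c, Cplx2 and Vamp1), 6.52%, where it called 1.67% of all genes, and limma-voom called 0, where it called 0.0077%. In a fit of the male groups alone 6 were called (those 3 with Erc2, Sv2b and Doc2b), 13.04% against 2.33% of all genes. Without female stressed 2, a library of neither group, 4 were called (those 3 with Erc2), 8.7% against 1.79%. Without male stressed 5, Cplx2 alone was called, 2.17% against 0.993%. Calls over all genes were thus also more numerous in these fits. With single libraries left out, the members' median was lowest without male stressed 2 (-0.0265) and highest without male stressed 3 (0.0281).

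Between control males and females, 1 of 46 members was called, 2.17% against 0.747% of all genes. An unadjusted p under 0.05 was found for 5 members, 10.9% against 15.3% of all genes. All 5 were lower in males (Unc13c, Cplx2, Cplx1, Syt12 and Napa), 10.9% against 8.17% of all genes lower and 0% against 7.08% higher. Groups did not overlap for Unc13c alone, 2.17% against 3.97% of all genes. The median was -0.0274 over the members, with 27 of 46 lower in males, and 0.00025 over all genes. DESeq2 called Unc13c, Cplx2 and Cplx1, 6.52% against 1.91% of all genes. With single libraries left out, the members' median was lowest without male control 4 (-0.0424) and highest without female control 4 (-0.0104). With the oligodendrocyte score as a covariate it was -0.00015, against 0.0018 over all genes. This comparison and that of stress in males share the male control libraries, so a gene that is low in those 5 libraries enters both.

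Between stressed males and females 0 members were called, where 0.077% of all genes were, and 1, Rimbp2, had an unadjusted p under 0.05 (-0.18, SE 0.07, adjusted p 0.649), 2.17% against 7.06%. No member's groups were apart, against 1.27% of all genes. The medians were -0.0154 over the members and -0.00035 over all genes. With single libraries left out, the members' median was lowest without male stressed 2 (-0.0353) and highest without male stressed 3 (0.023). For the difference of the stress effects between the sexes, the interaction, 0 members were called, where 0.0% of all genes were, and 5 had an unadjusted p under 0.05, 10.9% against 10.4%. They were Unc13c, Cplx2 (0.43, SE 0.14, adjusted p 0.33) and Cplx1 (0.27, SE 0.11, adjusted p 0.405), all more positive in males, and Rimbp2 (-0.24, SE 0.10, adjusted p 0.438) and Doc2a (-0.37, SE 0.16, adjusted p 0.446). DESeq2 and limma-voom called 0 members in both comparisons. Between stressed males and females DESeq2 called 0.112% and limma-voom 0.0847% of all genes. In the interaction they called 0.173% and 0%.

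**Figure D3:**
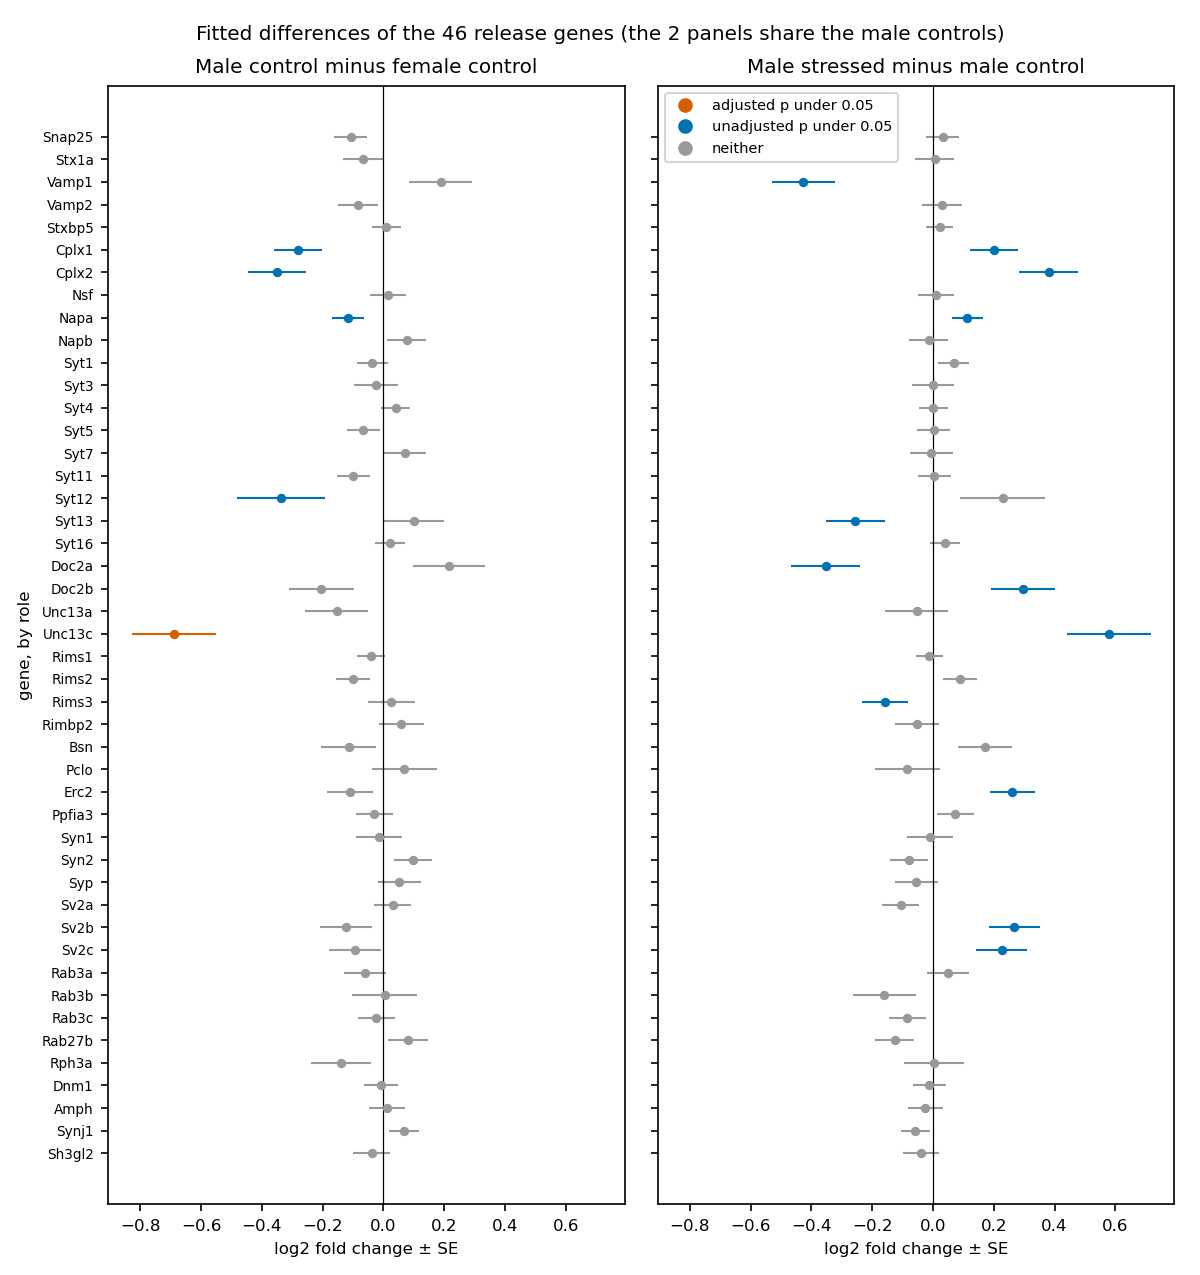
Log2 fold change (points) with its SE (bars) of each of the 46 members, by role, for control males minus control females (left) and stressed minus control males (right), which share the male controls. The point farthest from 0 in both panels is Unc13c, at -0.69 and 0.58, and colours mark an adjusted or an unadjusted p under 0.05.

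Levels of the machinery as a whole overlapped between groups. Its score, the mean log2 CPM of the 46 members centred on 0 over the 20 libraries, averaged 0.0255 ± 0.0354 in control and 0.0062 ± 0.0397 in stressed females, and -0.0266 ± 0.0326 in control and -0.0051 ± 0.0752 in stressed males (SD, n = 5). Stressed males had the widest spread, from -0.0733 in male stressed 3 to 0.0808 in male stressed 2. Male stressed 3 was the lowest of the 20 libraries for 16 of the 46 members, among them Vamp1, Vamp2, Syn1, Syn2, Syp, Syt13 and Doc2a, while male stressed 1 was the highest for 8 and female stressed 5 for 7. In male stressed 3 the general neuron markers (score -0.204), the oligodendrocyte markers (-0.44) and the thalamic neuron markers (-0.358) were also at their lowest. So were the 18 markers listed for the region (-0.24), of which Prkcd is also on the thalamic list. The striatal neuron markers (0.631) were at their highest. Without male stressed 3, 9 members had an unadjusted p under 0.05 for stress in males and 0 were called, where 0% of all genes were called. The shares of all genes that belong beside this 9 and beside the 16 are not given here. Neither count is therefore shown to be particular to the members.

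**Figure D4:**
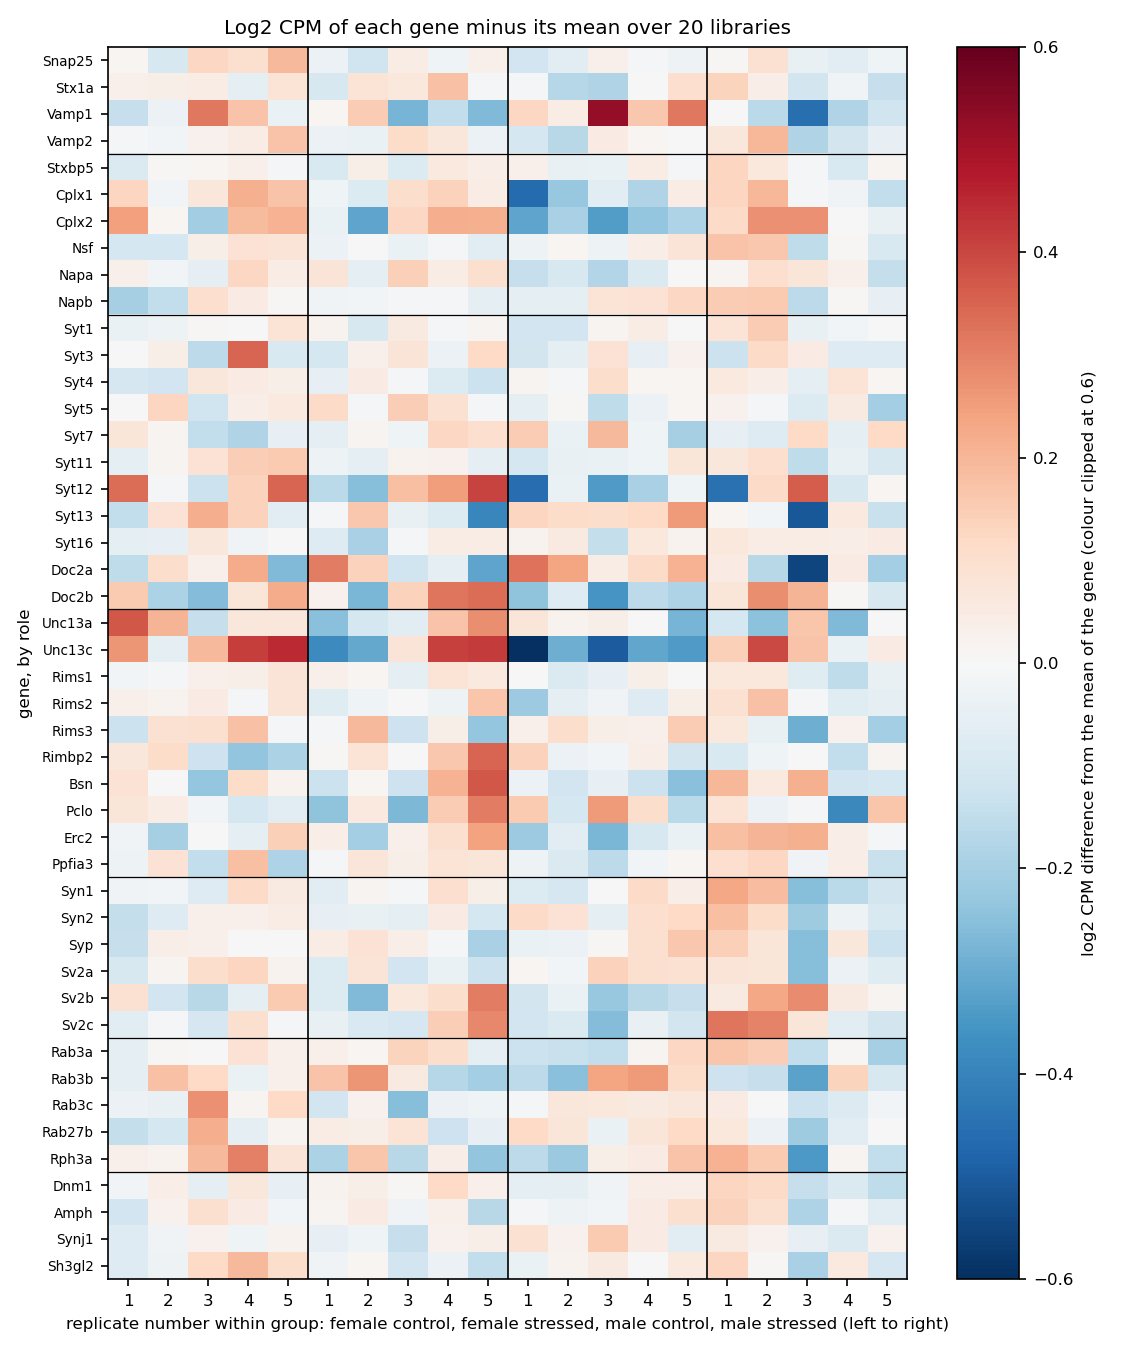
Log2 CPM of each member in each of the 20 libraries, as the difference from the member's mean over libraries, with members in rows by role and libraries in columns by group. Unc13c and Cplx2 are low in the 5 male controls, and male stressed 3 is the lowest library for 16 of the 46 rows.

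Markers of striatal projection neurons, which lie next to the adBNST, moved with part of the machinery. Each of the 14 markers on the list was detected in at least 1 library of every group. Their summed level was 2684 to 3436 CPM in control and 3980 to 6175 in stressed males. In control and stressed females the markers summed to 2936 to 5428 and 2855 to 6120 CPM. Their score averaged -0.453 ± 0.154 in control and 0.189 ± 0.282 in stressed males, and 0.139 ± 0.352 in control and 0.125 ± 0.444 in stressed females. With stress in males 14 of 14 markers were higher, 14 with an unadjusted p under 0.05 and 0 called, and between control males and females 14 of 14 were lower in males, 13 with an unadjusted p under 0.05 and 1 called. Male controls were thus low in these markers and in Unc13c, Cplx2 and Doc2b alike.

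Across the 20 libraries, the log2 CPM of 10 members correlated with the striatal score at r over 0.6 (21.7% against 9.56% of all genes), and of 6 members at r under -0.6 (13.04% against 6.28%). The positive ones were Cplx2 (0.96), Doc2b (0.92), Sv2b (0.89), Syt12 (0.86), Unc13c (0.84), Erc2 (0.75), Napa (0.75), Bsn (0.70), Cplx1 (0.62) and Sv2c (0.61). The negative ones were Vamp1 (-0.80), Syt13 (-0.79), Doc2a (-0.72), Rab27b (-0.70), Sv2a (-0.63) and Rims3 (-0.62). For Unc13c, Spearman's rho was 0.84, r was 0.84 without the 2 libraries farthest from the median score (male stressed 3 and male control 1) and 0.72 with group means removed. Members near 0 were Syn1 (0.02), Dnm1 (0.05) and Vamp2 (0.15). The libraries share their group labels and dissection with the score, and these coefficients describe them without a test.

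Other marker lists followed other members. General neuron markers had an r over 0.6 with 15 members (32.6% against 7.64% of all genes), led by Sv2a (0.88), Sh3gl2 (0.85), Syt13 (0.84), Syp (0.80), Rims3 (0.79) and Vamp1 (0.79). They had an r under -0.6 with Sv2b (-0.67), 2.17% against 4.70%. The adBNST markers had an r over 0.6 with 8 members (17.4% against 5.34%), led by Syp (0.88) and Syt13 (0.87), and under -0.6 with 5 (10.9% against 5.76%): Sv2b (-0.73), Bsn (-0.72), Syt12 (-0.65), Cplx2 (-0.62) and Doc2b (-0.60). Oligodendrocyte markers had an r over 0.6 with 10 members (21.7% against 6.30%), led by Syt11 (0.82) and Rph3a (0.81). They had an r under -0.6 with Syt7 (-0.74) and Rimbp2 (-0.60), 4.35% against 4.36%. An r over 0.6 was found for 7 members with astrocyte (15.2% against 5.84%) and 6 with thalamic markers (13.0% against 3.82%). It was found for 4 with microglial (8.70% against 3.25%) and 0 with endothelial markers (0% against 0.962%). An r under -0.6 was found for 3 members with thalamic (6.52% against 4.04%) and 1 with astrocyte markers (2.17% against 4.07%). For microglial and endothelial markers it was found for 0 (against 4.27% and 0.770%). The adBNST score was 0.071 ± 0.0765 in control and -0.0542 ± 0.126 in stressed males, with 3 of 5 stressed males below every control, while the summed level of its 18 markers had medians of 3288 and 3472 CPM. General neuron markers scored 0.047 ± 0.0693 and -0.0501 ± 0.105 in the same groups. The part of these lists in the members' differences was not tested, other than by the oligodendrocyte covariate.

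**Figure D5:**
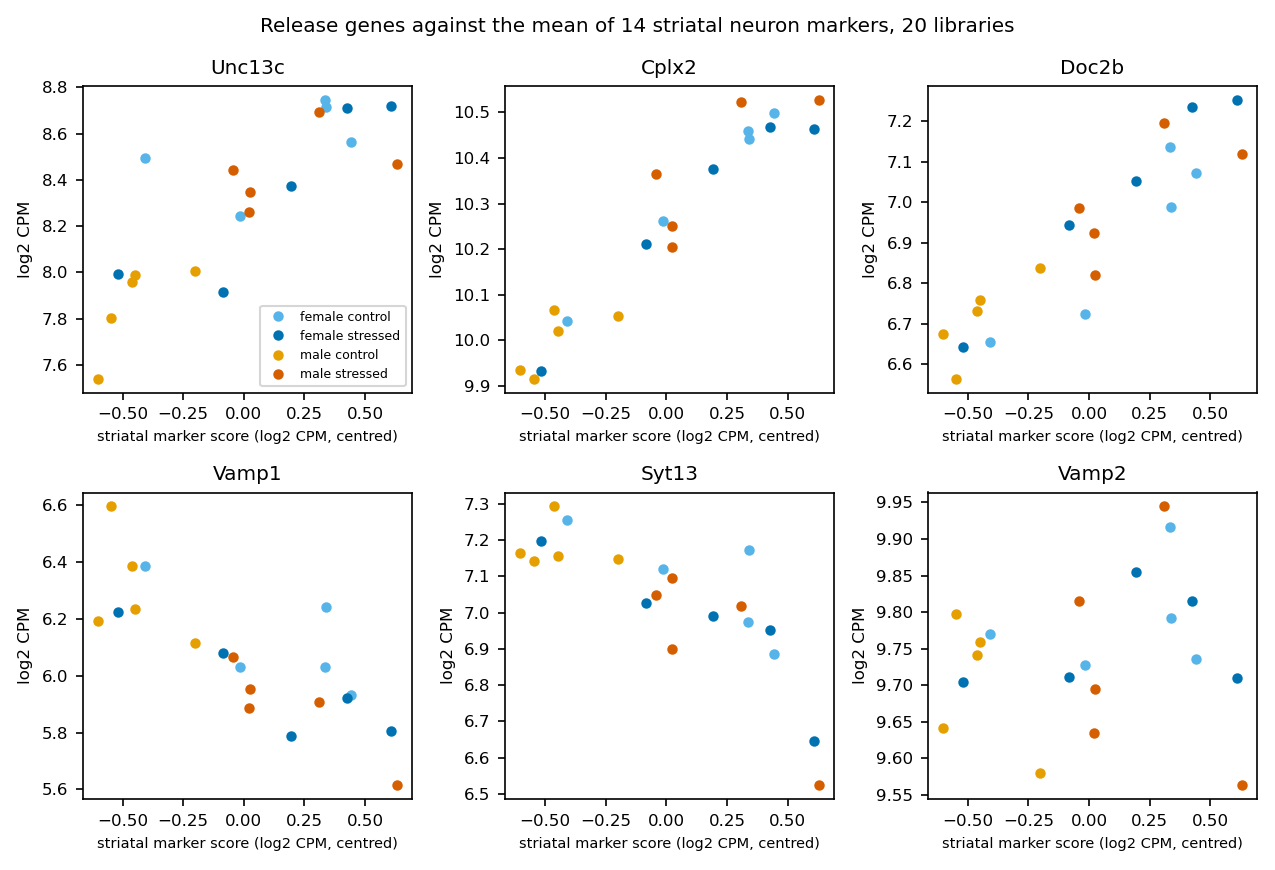
Log2 CPM of 6 members (vertical axes) against the striatal marker score of the library (horizontal axes, mean log2 CPM of 14 markers, centred), 1 point a library, coloured by group, 20 libraries. Cplx2 (r 0.96) and Unc13c (r 0.84) are higher where the score is higher, Vamp1 (r -0.80) is lower, and the male controls lie at the low end of the score, from -0.604 to -0.201.

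Adding the striatal score as a covariate lowered the number of members with an unadjusted p under 0.05 for stress in males from 12 to 2. The share of all genes at that threshold is not given for this fit, so the drop is not shown to be particular to the members. At the adjusted threshold 0 members were called in it, against 0.0077% of all genes. With the covariate, the stress difference in males was 0.23 for Unc13c, 0.06 for Cplx2, -0.16 for Vamp1, 0.10 for Erc2 and -0.00071 for Sv2b, with adjusted p-values from 0.833 to 0.9996. The covariate itself differs between the male groups, so its part and that of stress cannot be told apart here, and the same holds for sex in the controls.

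A wider list of 90 other genes of the release pathway gave 87 in the table. With stress in females 0 were called and 2 had an unadjusted p under 0.05 (2.3% against 7.51% of all genes), 1 in each direction: Sypl, a synaptophysin relative (-0.18, SE 0.07, adjusted p 0.608), and Prrt2, a regulator of fusion (0.14, SE 0.07, adjusted p 0.662). With stress in males 0 were called and 12 had an unadjusted p under 0.05 (13.8% against 15.5%), 8 higher and 4 lower, led by Gpr158, a synaptic receptor (0.36, SE 0.10, adjusted p 0.103), and Mctp1, a membrane protein with C2 domains (0.44, SE 0.12, adjusted p 0.104). Between control males and females 1 was called (0.747% of all genes were) and 10 had an unadjusted p under 0.05 (11.5% against 15.3%), 5 in each direction. In stressed mice 0 were called and 6 had an unadjusted p under 0.05 (6.9% against 7.06%), 3 in each direction, with Sytl4 and the SNARE gene Vamp3 (0.18, SE 0.07, adjusted p 0.631) first. For the interaction 0 were called and 5 had an unadjusted p under 0.05 (5.75% against 10.4%), 4 higher and 1 lower, with Gpr158 (0.40, SE 0.14, adjusted p 0.355) and the vesicle protein gene Synpr (0.39, SE 0.17, adjusted p 0.438) first.

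The call was Sytl4, on the X chromosome, whose protein granuphilin binds Rab27 and docks secretory granules. It had 9.13, 9.44, 13.4, 10.2 and 9.31 CPM in the female controls. The stressed females had 7.81, 15.3, 9.64, 7.96 and 4.71 CPM, the male controls 23.8, 20.2, 18.8, 28.1 and 31.3 and the stressed males 27.0, 19.8, 11.3, 26.1 and 20.5. Male controls were all above female controls, by a log2 fold change of 1.29 (SE 0.25, adjusted p 0.0177), and stressed males differed from stressed females by 1.15 (SE 0.24, adjusted p 0.124). Its call in controls was lost without female control 1 (adjusted p 0.0691), without female control 5 (0.0595), with the replicate number as a block (0.0569) and with the striatal covariate (0.68, adjusted p 0.113).

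The genes outside the set whose log2 CPM followed the machinery's score most closely over the 20 libraries were Spock2 (r 0.92), App (0.92), Aplp2 (0.88), Dpp6 (0.87) and Tm9sf4 (0.87). Of the members themselves, Syn1 (0.87), Syt11 (0.83) and Dnm1 (0.80) followed it most closely, and Syt7 (-0.44) and Rimbp2 (-0.17) least. Each member is part of the score, so its own coefficient includes itself.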

How the data were processed

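The library kit was a stranded one for mRNA, per the labels' protocols. STAR, featureCounts and build mm10 are named in the submitters' processing notes; versions, the strand setting and the annotation are not given in the sources used here. The deposited values are the authors' raw counts per gene symbol, whole numbers without normalization. In the table the lowest row total was 1002, and 0 columns were left unused. Counts were fitted with edgeR 4.0.16 in R 4.3.3: TMM, filterByExpr (12988 of 12988 genes kept), 1 mean for each of 4 groups, the two-sided quasi-likelihood test, and Benjamini-Hochberg adjustment over all genes of a contrast. The common biological coefficient of variation was 8.83%. CPM used TMM factors, and log2 CPM a prior count of 2. Exon lengths and overlaps came from GENCODE M21 (98.7% of genes matched), promoters from RefSeq.

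Named members were those called, the 5 with the smallest p in each contrast, and the highest and lowest per kb of each role; of the other pathway genes, those called or otherwise the 2 with the smallest p. Further members were named to complete a role or family, after their values were seen. Members and lists were chosen with earlier results of these data known. Replicate numbers did not pair the libraries. Alternatives were DESeq2 1.42.0, its size factors, limma-voom 3.58.1, the robust option, no filter or a mean of at least 10 CPM, only the groups compared, a replicate block, a striatal or oligodendrocyte score as covariate, a GC content and length correction, and each library left out in turn. The fits were tested on simulated data.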

Additional observations from a re-analysis of the deposited data

Results flagged for a closer look

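Of 188 sets of 5 libraries checked for a single library apart from the other 4 (46 members and the members' score in 4 groups), 11 had one, by the gap between that library and its nearest neighbour as a share of the group's range. Chance flags about 1 in 20 groups, which is 9.4 of 188, so the number is near the number chance gives. None of them concerns Unc13c, Cplx1, Cplx2 or Vamp1.

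In male controls, library 3 stood apart for Syt4, with 326 CPM against 302 to 307 in the others, for Syt16, with 64.8 against 72.4 to 74.7, and for Syn2, with 419 against 463 to 473. Library 5 stood apart for Syt13, with 157 CPM against 141 to 143, and for Unc13a, with 296 against 358 to 377. Library 1 was low for Rab3c, with 596 CPM against 621 to 627. In stressed males library 1 was high for Syt16, with 74.8 CPM against 73.6 to 73.9, a gap of about 1 CPM. In stressed females library 5 was low for Napb, with 339 CPM against 347 to 349.6, and high for Rims2, with 173 against 147 to 154, and library 4 was high for Dnm1, with 884 against 819 to 833. In female controls library 1 was low for Syp, with 659 CPM against 725 to 746.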

How the results depend on the processing

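Among the values of single named genes, 769 kept their direction and their side of the threshold, 21 newly passed it, 9 lost it and 2 changed sign, both with the striatal score as a covariate: Sv2b with stress in males (-0.00071) and Syt12 for sex in controls (0.0467). The number of members called for sex in controls, 1 (0.747% of all genes called), became 3 with DESeq2 (1.91%), 2 with only the control groups fitted (2.34%), 2 with the oligodendrocyte covariate (2.46%), 2 with the GC content and length trend removed (1.69%), 0 with the striatal covariate (0.539%), and 0 to 2 with 1 library left out (0.246% to 1.65%). For stress in males, 0 (0.0077%) became 3 with DESeq2 (1.67%), 6 with only the male groups (2.33%) and 0 to 4 with 1 library left out (0% to 1.79%). It stayed at 0 for stress in females, sex in stressed mice and the interaction under each alternative and each library left out. At most 0.0077%, 0.115% and 0.173% of all genes were called in these 3 comparisons. Members with an unadjusted p under 0.05 moved by over 1.5 times with single libraries: for stress in females (2), to 1 without female control 3, 4 or 5 or female stressed 3 or 5, to 4 without female control 1 or 2 or male stressed 3, and to 6 without female stressed 2; for sex in controls (5), to 3 without female control 5 or male control 1 and 8 without female control 3; for sex in stressed mice (1), to 2 without female stressed 2 or male stressed 1 and 3 without female stressed 5; for the interaction (5), to 3 without female control 5 or male control 1. The oligodendrocyte covariate gave 12 between control males and females and 8 in the interaction. The shares of all genes at the unadjusted threshold are not given for these refits. The changes in these counts are therefore not shown to be particular to the members. Libraries with the same replicate number did not deviate together (r from -0.473 to 0.237 over 30 pairs; 0 of 20 libraries closest to their own number). With the replicate block, the members called numbered 1 for sex in controls, where 0.37% of all genes were called. They numbered 0 in the other comparisons, where 0% to 0.0616% were called. The adjusted p of Unc13c for sex in controls was 0.0255. Depth limits the rarest members most: the lowest count of Syt12 in a library was 53.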
